A study of Mus musculus with 2 samples.

Results

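The Zfp genes of mouse chromosome 7 are 89 protein-coding genes of the GENCODE M21 annotation whose symbol is Zfp followed by a number, out of 21938 protein-coding genes on the nuclear chromosomes. The rule that chose them used symbol and position alone and no measured value, though earlier results of these data were known when it was set. Symbols that end in a letter, such as Zfp607a, fall outside this choice. Most of these genes encode proteins with tandem C2H2 zinc fingers, small folds that each hold a zinc ion and contact a few bases of DNA. Many also carry a KRAB domain, which recruits the corepressor Trim28 and, through it, the histone methyltransferase Setdb1, and such proteins are known for silencing transposable elements and some imprinted regions. The family has grown by tandem duplication, so that its members often lie side by side and resemble each other in sequence.

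Open chromatin was measured by DNase-seq, in which the enzyme DNase I cuts DNA where nucleosomes are displaced and the cut ends are sequenced. The single group consisted of whole B6NCrl embryos, an inbred strain, taken on embryonic day 10.5 with males and females pooled, in 2 biological replicates that the labels trace to 1 donor record. How many embryos went into each pool is not stated. No genotype, treatment or second stage was compared, so no contrast between conditions was drawn. A whole embryo mixes many cell types, and a site open weakly in all of its cells cannot be told apart from a site open in a few of them.

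The deposited files list peaks of 150 bp and broader hotspots for each replicate on the mm10 build. Replicate 1 held 207946 nuclear peaks and replicate 2 held 229568, with a median score of 41 and 50. The score, called strength here, is the authors' own value for each peak, runs from 2 to 149 on the nuclear chromosomes, and has no definition in the sources used here. It is bounded, so differences and not ratios are given. The number of reads behind it is unknown. Of the markers checked against the labelled tissue, the promoters of all 3 neural, 3 somite, 3 heart and 3 limb genes held a peak in both replicates, and none of 3 placental genes did. Over all protein-coding genes 69.7% did. The heart genes differed between replicates by a median of 36, with median strengths of 52 and 82, beside a median difference of 8 over all open genes.

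Several of the sequences behind the results are shown first. All were read from RefSeq's copy of the GRCm38.p6 assembly, whose chromosomes are those of mm10, and run 5′ to 3′ on the strand of the gene. Bases of annotated exons were left out, so some are shorter than the 150 bp of the peak they come from. The first set are the promoter peaks of the 5 Zfp genes that held the word ACTACAATT, part of the element that the activator Zfp143 binds. Each held it as its reverse complement, AATTGTAGT, in capitals. They lie at chr7:12881036-12881176, chr7:24081756-24081905, chr7:24134056-24134168, chr7:24254636-24254785 and chr7:24270296-24270419, all on the plus strand.
Zfp128: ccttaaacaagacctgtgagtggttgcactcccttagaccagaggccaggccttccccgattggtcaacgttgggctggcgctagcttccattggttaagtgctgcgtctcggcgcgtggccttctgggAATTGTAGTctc
Zfp180: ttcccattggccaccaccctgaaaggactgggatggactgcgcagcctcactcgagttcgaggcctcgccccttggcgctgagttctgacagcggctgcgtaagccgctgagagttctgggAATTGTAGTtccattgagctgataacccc
Zfp235: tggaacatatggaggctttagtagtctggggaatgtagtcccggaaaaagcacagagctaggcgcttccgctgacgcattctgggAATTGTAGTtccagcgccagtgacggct
Zfp108: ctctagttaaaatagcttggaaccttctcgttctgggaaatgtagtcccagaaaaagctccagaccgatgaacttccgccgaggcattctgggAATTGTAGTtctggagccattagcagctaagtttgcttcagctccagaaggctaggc
Zfp93: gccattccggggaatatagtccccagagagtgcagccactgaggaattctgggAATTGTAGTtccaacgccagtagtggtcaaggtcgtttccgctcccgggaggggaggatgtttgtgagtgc

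The second set compares an open promoter with its near copies. The first line is the promoter peak of Zfp976, at chr7:42642596-42642745 on the minus strand, in lower case. Below it stand the best matches near the starts of 3 neighbours, Zfp975 at chr7:42692770-42692919 and Zfp977 at chr7:42592556-42592702 on the minus strand, and Zfp936 at chr7:43114023-43114166 on the plus strand. Capitals mark bases that differ from, or are added to, the Zfp976 sequence, while bases missing from a copy leave no mark. Zfp976 and Zfp975 had a peak there in both replicates, whereas Zfp977 and Zfp936 had a peak there in neither.
Zfp976: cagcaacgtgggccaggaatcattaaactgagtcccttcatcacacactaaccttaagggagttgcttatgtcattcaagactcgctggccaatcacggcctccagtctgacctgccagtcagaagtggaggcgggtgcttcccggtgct
Zfp975: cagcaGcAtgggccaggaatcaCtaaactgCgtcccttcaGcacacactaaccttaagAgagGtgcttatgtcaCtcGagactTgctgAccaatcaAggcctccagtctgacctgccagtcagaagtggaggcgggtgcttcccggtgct
Zfp977: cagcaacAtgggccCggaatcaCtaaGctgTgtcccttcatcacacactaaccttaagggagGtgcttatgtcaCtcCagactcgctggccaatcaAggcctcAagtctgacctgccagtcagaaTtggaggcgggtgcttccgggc
Zfp936: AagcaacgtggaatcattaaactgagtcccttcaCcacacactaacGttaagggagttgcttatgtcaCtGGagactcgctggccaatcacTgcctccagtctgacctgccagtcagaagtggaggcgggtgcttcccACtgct

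The third set are promoter peaks of 3 KRAB genes that held the word GCGCANGCG, the core of the site of Nrf1, an activator of genes for mitochondrial function, in capitals on either strand. They lie at chr7:29783916-29783997 on the plus strand, chr7:30072901-30072965 on the minus strand and chr7:43562156-43562255 on the plus strand. In each, matches on both strands overlap, so that the capitals run past the length of 1 word.
Zfp30: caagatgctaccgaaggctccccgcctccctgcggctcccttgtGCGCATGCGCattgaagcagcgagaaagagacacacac
Zfp82: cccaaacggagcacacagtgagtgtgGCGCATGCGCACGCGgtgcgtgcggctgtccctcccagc
Zfp658: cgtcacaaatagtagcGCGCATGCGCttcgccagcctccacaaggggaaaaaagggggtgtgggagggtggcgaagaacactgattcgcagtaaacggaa

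Nearly all Zfp promoters of chromosome 7 were open in the day 10.5 embryo. Here open means that both replicates had a peak no more than 1 kb from some annotated transcription start site (TSS) of the gene. Of the 89 genes, 85 (95.5%) were open, 85 in replicate 1 and 86 in replicate 2, beside 15300 of all 21938 protein-coding genes, or 69.7%. A hotspot reached a TSS in both replicates at the same 85 genes, beside 70.0% of all genes. Among the Zfp genes of other chromosomes 235 of 276 (85.1%) were open, and among the other protein-coding genes of chromosome 7, 1088 of 1934 (56.3%). The 128 other protein-coding genes that lie between members of the same cluster were open in 72 cases. Of those, 18 are olfactory or vomeronasal receptor genes, which serve smell and pheromone sensing, and 1 of the 18 was open, against 71 of the remaining 110 (64.5%).

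**Figure D1:**
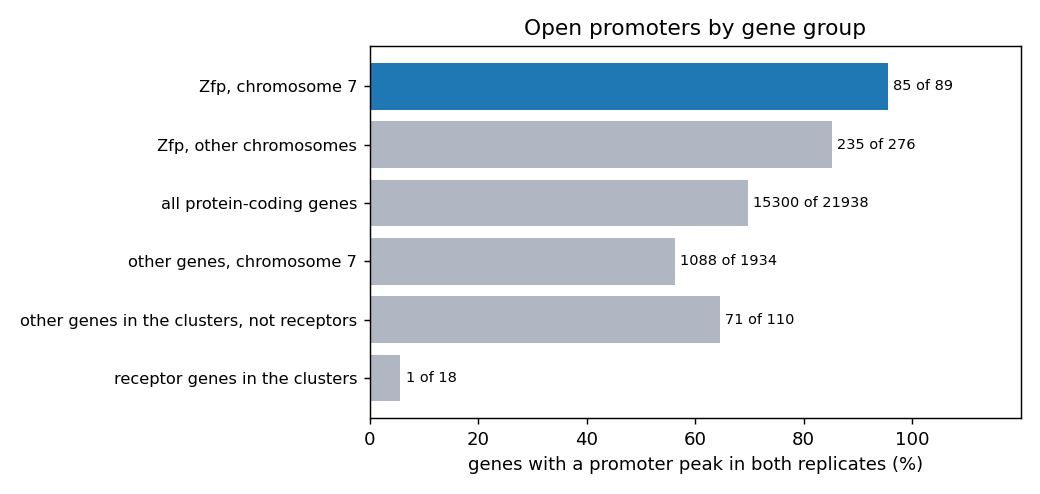
Share of genes with a promoter peak in both replicates (horizontal axis, percent) in 6 gene groups, with the counts beside each bar. The bar of the chromosome 7 Zfp genes, 85 of 89, is the longest of the 6, and that of the 18 receptor genes inside the clusters, with 1 open, the shortest.

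The strongest promoter peak of an open Zfp gene had a median strength of 117 in replicate 1 and 124 in replicate 2. Over all 15300 open genes the medians were 109 and 118, and over the 235 open Zfp genes elsewhere they were 112 and 121. The 72 other open genes inside the clusters had medians of 118.5 and 123.5, beside the members' 117 and 124. They include Zfp607a and Zfp780b, whose symbols end in a letter, and Gm26920, which shares the peak of Zfp566. Over the open members the mean of both replicates ran from 41 at Zfp772 to 142 at Zfp146, and only Zfp772 and Zfp296 fell under 80. Replicate 2 was the higher at 71 members, replicate 1 at 8, and 6 were equal. This tilt was shared by the whole table, since 83.5% of the members and 83.3% of all open genes were higher in replicate 2, by a median of 7 and 8. The difference ran from -8 at Zfp473 to 28 at Zfp773.

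**Figure D2:**
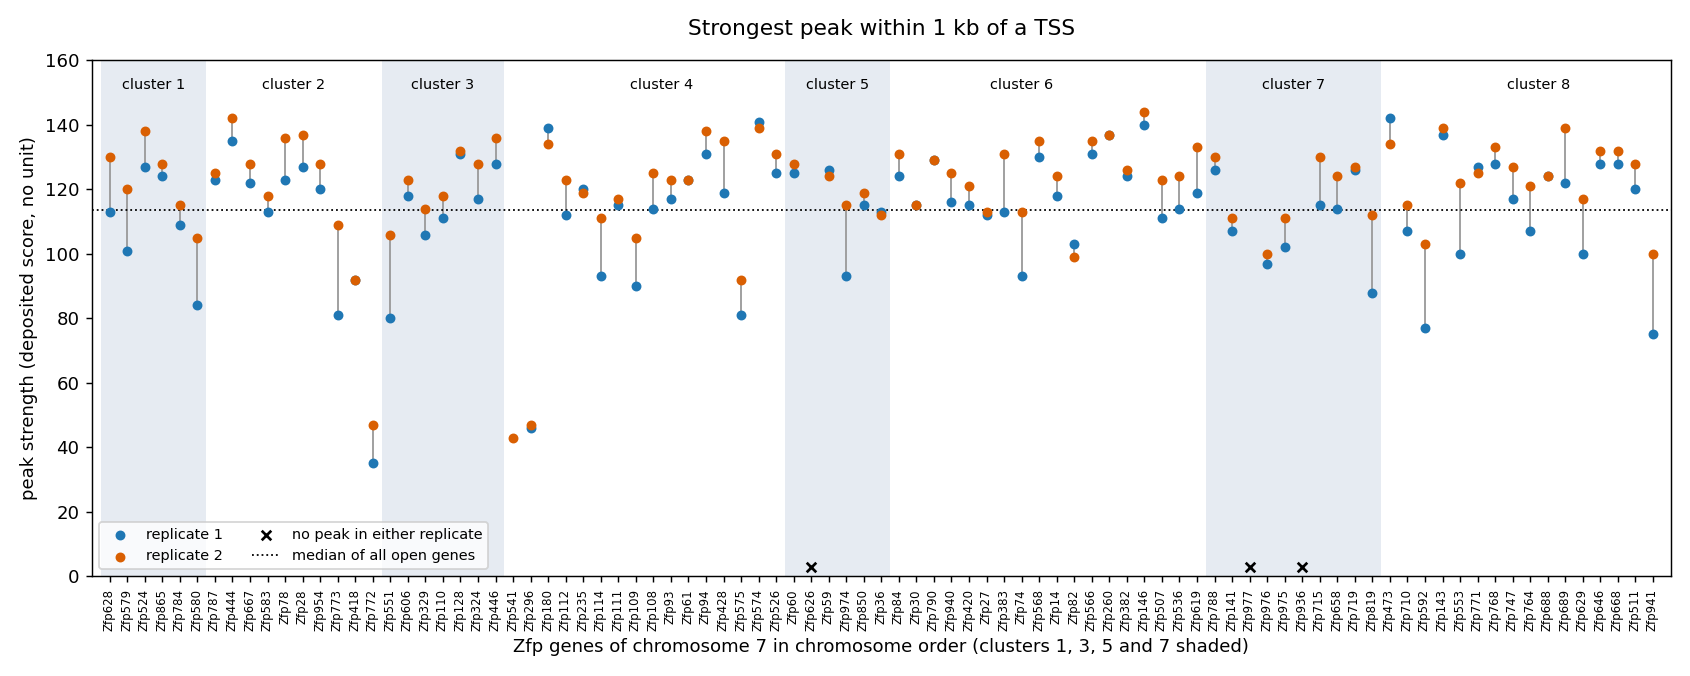
Strength of the strongest peak within 1 kb of a TSS (vertical axis, deposited score) for each of the 89 Zfp genes in chromosome order, with replicate 1 in blue, replicate 2 in orange and a line between them. Crosses near 0 mark the 3 genes with no peak in either replicate, Zfp541 has a replicate 2 point alone, and the dotted line is the median of all open genes, 113.5.

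Most of the strongest promoter peaks lay close to a TSS. The centre of the strongest peak lay within 100 bp of a TSS at 63 of the 85 open genes (74.1%), beside 62.9% of all open genes. It lay upstream of the nearest TSS at 67 and downstream at 18, with a median offset of -25 bp. The strongest peaks of both replicates overlapped at 78 members and had the same position at 37. They did not overlap at the other 7, Zfp524, Zfp784, Zfp60, Zfp788, Zfp710, Zfp592 and Zfp553, where the replicates' strongest peaks were different peaks of the same promoter region. For side of the TSS and for overlap, the shares over all open genes are not given here. Those counts cannot be called high or low.

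At 11 members the strongest peak lay within 1 kb of a TSS of another protein-coding gene as well, so the signal belongs to no single gene. The same share over all open genes is not given here, so this count cannot be called high or low. Zfp646 and Zfp668 shared 1 peak with each other, at 128 in replicate 1 and 132 in replicate 2. Zfp524 shared its peak with Fiz1, Zfp865 with Ccdc106, Zfp296 with Gemin7, Zfp575 with Ethe1, Zfp526 with Dedd2 and Zfp566 with Gm26920. Zfp473, which takes part in histone pre-mRNA processing, shared its peak with Vrk3, Zfp553 with Sept1 and Zfp511 with Tubgcp2.

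With a largest gap of 1 Mb between neighbouring members and at least 3 members to a cluster, the genes fell into 8 clusters of 78 members in all, and the other 11 stood scattered. Of the clustered members 75 were open, with a median strength of 121.5 as the mean of both replicates, and of the scattered members 10 were open, with a median of 118. Peaks of any kind numbered 8.14 per 100 kb in replicate 1 and 9.07 in replicate 2 over chromosome 7 as a whole. Cluster densities ran from 2.32 and 3.48 in cluster 7 to 20.9 and 23.1 in cluster 1. These counts include promoter peaks, and the clusters are chosen for their genes. Peaks over 1 kb from any TSS numbered 5.64 and 6.15 per 100 kb over chromosome 7, and 4.33 and 5.05 in cluster 1. By these peaks, clusters 1, 3, 6 and 7 lay below chromosome 7 in both replicates, and clusters 2, 4, 5 and 8 above.

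**Figure D3:**
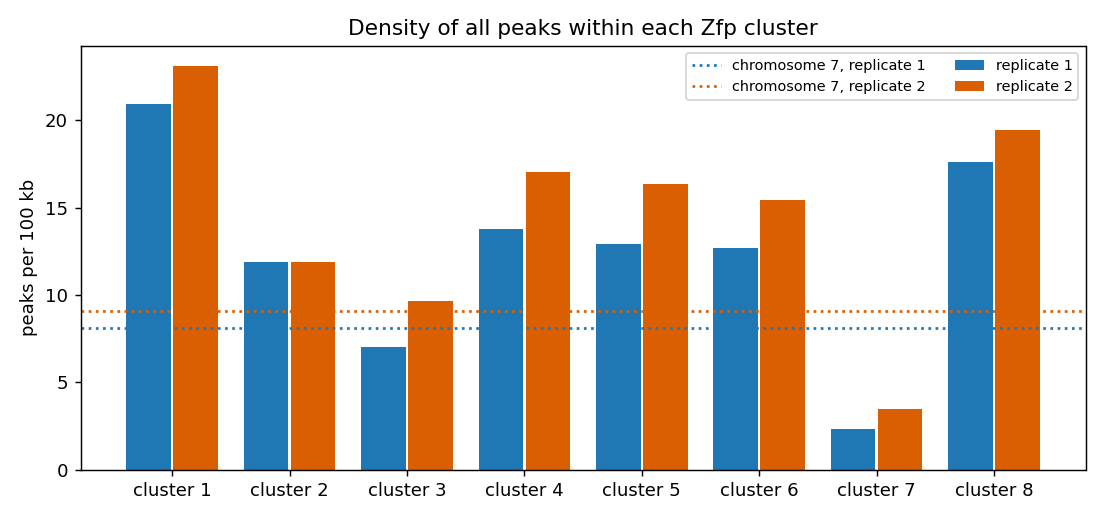
Peaks of any kind per 100 kb between the first and last member of each cluster (bars, replicate 1 blue, replicate 2 orange). Promoter peaks are included, and dotted lines show the density of the whole of chromosome 7. Cluster 7 lies under both lines at 2.32 and 3.48, cluster 3 under the line in replicate 1 alone, and the other 6 clusters above.

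Cluster 1, at chr7:4915217-5053723, held 6 members, none with a KRAB pattern, and all 6 were open. Zfp524 was its strongest, at 127 in replicate 1 and 138 in replicate 2, at the peak shared with Fiz1. Zfp580 was its weakest, at 84 and 105. Its other 8 protein-coding genes were open in 6 cases.

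Cluster 2, at chr7:6131491-7209998, held 10 members, 8 of them with a KRAB pattern, and all 10 were open among 18 other genes of which 7 were. It surrounds the imprinted genes Zim1, Peg3 and Usp29 and 8 olfactory receptor genes. Zfp444 was the strongest, at 135 and 142. Zfp28, a KRAB gene, stood at 127 and 137. Zfp772 was the weakest open member of all 89, at 35 and 47, under a hotspot of only 109 bp in both replicates, and Zfp773 had the widest gap between replicates, at 81 and 109.

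Cluster 3, at chr7:12415153-12985714, held 7 members and all were open, beside 4 of 9 other genes. Zfp446 stood at 128 and 136, and Zfp551 at 80 and 106, a gap of 26 between replicates. None of the 4 vomeronasal receptor genes inside it had a promoter peak. Zfp324 and Zfp446 each had 1 distal peak within 50 kb in replicate 1 and 10 in replicate 2, of which 1 was shared. The next genes beyond its end include Trim28 itself, at 120 and 132.

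Cluster 4, at chr7:24081924-25227507, held 14 members, all open, while 15 of its 31 other genes were. Zfp574 was the strongest, at 141 and 139. Zfp575 was the weakest, at 81 and 92, at the peak it shares with Ethe1, which encodes a mitochondrial sulphur dioxygenase. Zfp180 stood at 139 and 134 and Zfp93, a KRAB gene, at 117 and 123. With Zfp235 and Zfp108, they are the members of this cluster that hold the Zfp143 word.

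Cluster 5, at chr7:27731389-28380253, held 6 members of which 5 were open, and 14 of 15 other genes. Zfp60 was the strongest, at 125 and 128, and Zfp974 the weakest open member, at 93 and 115. Zfp36, or tristetraprolin, stood at 113 and 112. It carries fingers of the CCCH type that bind AU-rich elements in mRNA and lead to their decay, so it shares the symbol but not the C2H2 fold, and no stretch of it matched the C2H2 pattern.

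Cluster 6, at chr7:29768552-30169750, held 15 members and 1 other gene in 401 kb, and all 15 members were open. Zfp146 was the strongest of all 89, at 140 and 144, or 142 ± 2.83 (SD, n = 2), above 99.9% of the open genes of the genome. Zfp568, a KRAB gene needed for mouse gastrulation that silences a placental Igf2 transcript, stood at 130 and 135. Zfp260 stood at 137 in both replicates, Zfp382 at 124 and 126, Zfp30 at 115 in both and Zfp82, the weakest, at 103 and 99. No member of this cluster fell under 99 in replicate 2, but Zfp74 stood at 93 in replicate 1 and 113 in replicate 2. Zfp82 is the weakest by the mean of both.

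Cluster 7, at chr7:41633203-43618285, was the longest and sparsest, with 10 members in 1985 kb, all with a KRAB pattern. Of these, 8 were open, beside 5 of 22 other genes, and all 6 vomeronasal receptor genes inside it lacked a promoter peak. Zfp788 was the strongest, at 126 and 130, and Zfp976 the weakest open member, at 97 and 100. Zfp819 differed by 24, at 88 and 112. Repeat-masked bases made up 50.6% of this cluster, the highest of the 8, beside 28.1% of cluster 1.

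Cluster 8, at chr7:127233061-127885996, held 10 members, 4 with a KRAB pattern, and all were open beside 20 of 24 other genes. Zfp689 stood at 122 and 139 and Zfp629, the weakest, at 100 and 117. Zfp747 stood at 117 and 127.

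Among the scattered members Zfp143, which encodes the activator named above, was level with Zfp473 as the strongest, at 137 and 139. Zfp296, expressed in pluripotent cells, was the weakest open one, at 46 and 47. Zfp536, a repressor expressed in the developing nervous system, stood at 114 and 124. Zfp592 stood at 77 and 103 and Zfp941 at 75 and 100, and both were among the 5 members that differed most between replicates.

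The 4 members outside the open set were not alike. Zfp541, a gene of meiosis in the male germ line, had no promoter peak in replicate 1 and 1 of strength 43 in replicate 2, under a hotspot of 244 bp. Its promoter was rich in CpG, with an observed to expected ratio of 0.853. Zfp626, Zfp977 and Zfp936, all with a KRAB pattern, had no promoter peak and no hotspot at a TSS in either replicate, and their CpG ratios were 0.172, 0.307 and 0.402, under the median of 0.64 over all members and 0.552 over all genes. Ratios of 0.402 or less were also found at 11 open members, down to 0.124 at Zfp473. The ratio was taken at the 5′-most TSS, however. Zfp473 and Zfp111, which had a ratio of 0.232, were not open by that TSS alone.

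The nearest peak to a Zfp626 TSS lay 2.33 kb away at 109 in replicate 1 and 1.93 kb away at 41 in replicate 2. For Zfp977 the nearest lay 50 kb away in replicate 1, at the promoter of Zfp976, and 12.1 kb away at 18 in replicate 2. For Zfp936 it lay 95.8 kb away at 27 in replicate 1 and 16.7 kb away at 23 in replicate 2. Zfp977 and Zfp936 also had no distal peak in both replicates within 50 kb, whereas Zfp626 had 8.

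Near-identical neighbours can keep reads from being placed, so the promoter sequences were checked for words of 31 bases that occur once in the genome. Within 1 kb of the TSSs, such words made up a median of 95.7% over the open members, from 31.1% to 100%. They made up 52.6% at Zfp977, 51.8% at Zfp936, 62.3% at Zfp626 and 99.4% at Zfp541. Open members reached as low, with 31.1% at Zfp772, 45.9% at Zfp976 and 50.5% at Zfp747, and Zfp975 had 64.1%. How reads with several matches were handled is not given in the sources used here, and its part in the missing peaks was not tested.

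**Figure D4:**
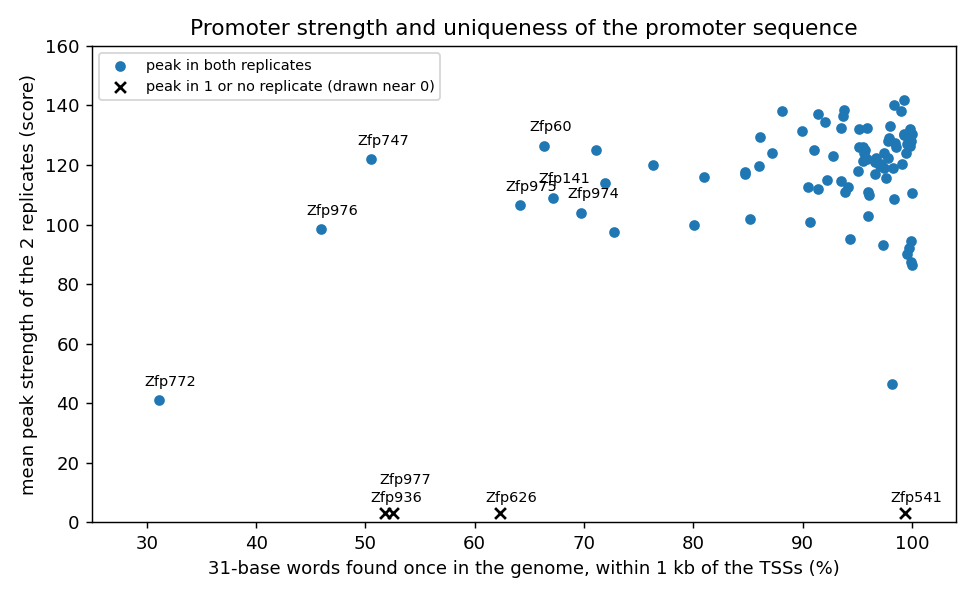
Mean strength of the strongest promoter peak (vertical axis, score) against the share of 31-base words within 1 kb of the TSSs that occur once in the genome (horizontal axis, percent), 1 point per Zfp gene, with crosses near 0 for the 4 genes not open in both replicates. Zfp977 and Zfp936 lie at 52.6% and 51.8%, between the open Zfp976 at 45.9% and Zfp975 at 64.1%.

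The promoter copies printed above were compared over the peak alone. Against the Zfp976 peak, the copy at Zfp975 differed at 12 positions (92.0% identity), that at Zfp977 at 14 (90.7%) and that at Zfp936 at 15 (90%). They were centred 82 bp from a TSS of Zfp977 and 134 bp from one of Zfp936, against 83 bp at Zfp976 and 103 bp at Zfp975. All 4 kept a CCAAT box. The copies at Zfp976 and Zfp975 had strengths of 97 and 102 in replicate 1 and of 100 and 111 in replicate 2, and those at Zfp977 and Zfp936 had no peak and no hotspot.

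Within these copies, words of 31 bases found once in the genome made up 64.2% at Zfp976, 80.8% at Zfp975, 73.5% at Zfp977 and 86.0% at Zfp936. The copy at Zfp936, which had no peak, had the highest share of the 4, and the open one at Zfp976 the lowest. The part of read placement in the missing peaks was not tested here either. At Zfp772, whose peak was the weakest, 49.2% of the words in the peak occurred once.

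The median Zfp gene of chromosome 7 had fewer distal peaks around it than the median protein-coding gene. A distal peak lay over 1 kb from any TSS of any gene and was counted within 50 kb of the TSSs of a gene where both replicates had it. The median was 2 for the members, 4 in replicate 1 alone and 5 in replicate 2 alone. Over all protein-coding genes it was 5, with 7 and 8, over the Zfp genes of other chromosomes 3, and over the other genes inside the clusters 5. Beside the other Zfp genes the order did not hold, since both medians were 1 within 25 kb and the members had 7 against 6 within 100 kb. Neighbours count the same peaks, so the 89 members had 223 distinct distal peaks. None was found at 13 members (14.6%, beside 12.9% of all genes), 1 or 2 at 33, and more than 10 at 3.

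Those 3 were Zfp536 with 16, Zfp574 with 12 and Zfp428 with 11, followed by Zfp710 with 10 and by Zfp507, Zfp511, Zfp526 and Zfp541 with 9 each. Zfp536 had 21 in replicate 1 and 27 in replicate 2. Scattered members had a median of 6 and clustered members a median of 2. Cluster 7 had a median of 0, clusters 3 and 4 of 1, clusters 1, 2 and 6 of 2, cluster 8 of 4 and cluster 5 of 6.

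**Figure D5:**
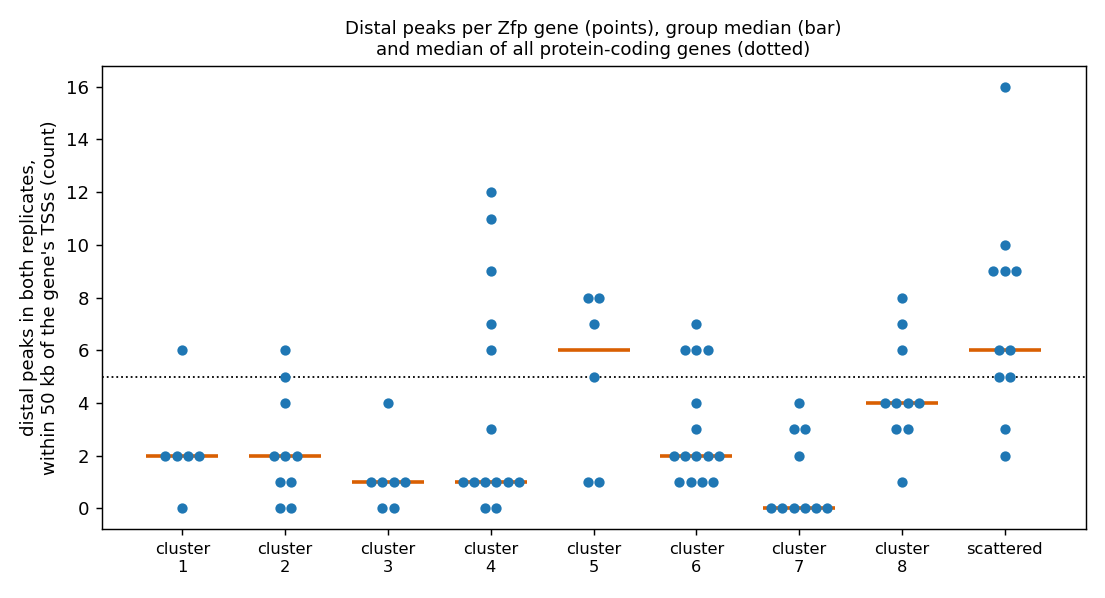
Distal peaks found in both replicates within 50 kb of the TSSs (vertical axis, count) for each Zfp gene, by cluster and for the 11 scattered genes, with orange bars for group medians and a dotted line at 5, the median of all protein-coding genes. Cluster medians run from 0 in cluster 7 to 6 in cluster 5, and the highest point is Zfp536 with 16.

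Inside the gene bodies, 56 shared distal peaks lay in 14 members, and the other 75 had none. Introns held 52 of them (92.9%), exons outside the coding sequence 3 and a coding exon 1 (1.79%), at Zfp771. Of the other 1934 protein-coding genes of chromosome 7, 664 (34.3%) had any, beside 15.7% of the members, and 90% of their peaks lay in introns and 3.33% in coding exons. Zfp536, which spans 302 kb, held 31, all in introns. Zfp710 held 8 and Zfp568 held 5, again all in introns.

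Hotspots at the promoters had a median width of 954 bp in replicate 1 and 1466 bp in replicate 2 for the open members. Over the 15355 protein-coding genes with a hotspot at a TSS in both replicates the medians were 840 and 1484 bp. Zfp710 had the widest on average, at 2618 and 2665 bp, followed by Zfp428 at 1456 and 3756 bp and Zfp143 at 2286 and 2897 bp. Zfp646 and Zfp668 share 1 of 2542 and 2619 bp. Zfp428 more than doubled between replicates, so its rank rests on replicate 2.

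A KRAB domain was looked for by the spacing of its conserved residues in the protein translated from the annotation. This pattern was in 55 of the 89 members. It was not checked against known domains, so the other 34 may hold KRAB genes that it missed. Of the 55 with the pattern 52 were open, as were 33 of the 34 without it, and their median strengths were 120.25 and 124. Shared distal peaks had a median of 1 around the first and 5 around the second. The promoters of the KRAB group had a median CpG ratio of 0.586 and a median GC content of 56.3% in the peak, against 0.706 and 64.7% in the others. Among the 78 clustered members alone, the 53 with the pattern had a median of 1 shared distal peak and the 25 without it a median of 4, with CpG ratios of 0.586 and 0.695. C2H2 fingers of the canonical spacing had a median of 11 per protein over all members, up to 33 in Zfp619.

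Motifs were searched as exact words on both strands of the strongest promoter peak, 150 bp, of the 85 open members and of all 15300 open genes. GGGCGG, the site of Sp and Klf factors, was in 27 members (31.8%), beside 51.1% of all. CCGGAAG, the Ets site, was in 17 (20%), beside 12.7%, and GCGCANGCG, the Nrf1 site, in 11 (12.9%), beside 9.5%. CCAAT, bound by Nfy, was in 25 (29.4%), beside 29.9%. Among the 235 open Zfp genes of other chromosomes, GGGCGG was in 41.7%, CCGGAAG in 19.6%, GCGCANGCG in 10.6% and CCAAT in 35.3%. The share of the Ets word was thus much the same in Zfp genes elsewhere. CACGTG, the E-box, was in 5, beside 6.78% of all, and GNGGNGGCA, a part of the Ctcf site, in 4, beside 5.78%. The GC content of the members' peaks had a median of 60.0%, beside 64.0% for all open genes and 59.3% for Zfp genes of other chromosomes. GC content bears on GC-rich words such as GGGCGG, and its part in their counts was not tested.

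Of the rarer words, AAGATGGCG, the Yy1 site, was in 3 members, Zfp27, Zfp507 and Zfp524, beside 1.33% of all genes. TGACGTCA, the Creb site, was in none, beside 2.82%, and CTCGCGAGA in none, beside 1.04%. Their absence says only that these letters were not in these windows. Within the members, GGGCGG was in 11 of the 52 peaks of the KRAB group and 16 of the 33 others, and CCAAT in 19 and 6. The Nrf1 word was in 5 of the 15 open members of cluster 6, namely Zfp30, Zfp14, Zfp82, Zfp260 and Zfp382. Over all open members its share was 12.9%, and over all open genes 9.5%. Outside this cluster it was in Zfp784, Zfp865, Zfp329, Zfp575, Zfp141 and Zfp658. Whether the clusters differ in this word was not tested.

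ACTACAATT, the Zfp143 word, was in 5 members (5.88%), beside 0.556% of all open genes, or 85 of 15300. Among the Zfp genes of other chromosomes it was in 5 of 235 (2.13%). The 5 members are Zfp128 in cluster 3 and Zfp180, Zfp235, Zfp108 and Zfp93 in cluster 4. In each the word lay on the strand opposite to the gene, with its centre 8 to 67 bp upstream of the nearest TSS, namely 8 bp at Zfp128, 24 at Zfp235, 43 at Zfp180, 61 at Zfp108 and 67 at Zfp93.

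The 7 bases before the capitals, ttctggg, were the same in all 5 sequences. The 150 bp peaks as wholes were less alike, with an identity of 44.0% to 66.7% over the 10 pairs, the highest being Zfp235 with Zfp108. Members of 1 cluster often descend from shared copies, so these matches are not independent of each other. The 5 peaks had strengths of 131 and 132 at Zfp128, 139 and 134 at Zfp180, 120 and 119 at Zfp235, 114 and 125 at Zfp108 and 117 and 123 at Zfp93. Only the exact word was counted. Close forms were not, such as ttctgggaaatgtagt, which is in the peaks of Zfp111, Zfp84 and Zfp790. A match is a description of the sequence and not a measurement of binding.

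Genes of the machinery that KRAB proteins recruit were open throughout. Of 24 corepressor genes on a list drawn up for this purpose, 24 had a promoter peak in both replicates, with a median strength of 123, beside the 69.7% of all genes and their median of 113.5. The strongest were Rbbp4, a histone-binding subunit of deacetylase complexes, at 137 and 139, Cbx5, which encodes the heterochromatin protein HP1 alpha, at 138 and 135, and, level by their mean, Cbx3, which encodes HP1 gamma, at 131 and 136 and Daxx, a histone chaperone, at 135 and 132. Setdb1 stood at 119 and 126.

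Of 5 KRAB genes of other chromosomes with known targets, 4 were open. Zfp445, which with Zfp57 maintains imprints, stood at 120 and 131 and Zfp809, which silences retroviruses in mouse stem cells, at 127 and 124. Zfp57 stood at 111 and 110 and Zfp708 at 109 and 112. Zfp932 had no shared promoter peak.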

How the data were processed

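Per the labels, each replicate was processed on its own against mm10. The text deposited with it says that the authors derived peaks and hotspots from filtered alignments. Which aligner, caller and thresholds they used is not given in the sources used here. The deposited peak score has no stated definition or depth, and the deposited hotspot value is the −log10 of a q-value, used here only to read the position and width of hotspots. Repeated peaks (28 and 47) were dropped and nuclear chromosomes kept. Genes and TSSs came from GENCODE M21, and sequence from RefSeq's GRCm38.p6. Distal peaks were paired one to one between replicates by best overlap of at least 1 bp. A C2H2 finger was 2 cysteines, 12 residues on and 2 histidines 3 to 5 apart. CpG ratios used 500 bp to each side of the 5′-most TSS. Python 3.11.15, numpy 2.4.6, pandas 2.3.3, matplotlib 3.10.9, numba 0.67.0 and edlib 1.3.9.post1 were used. No test between groups was possible with 1 group, and members are not replicates. The members, lists and motifs were chosen with earlier results of these data known, and the KRAB split, word uniqueness and copy search after seeing the values. Named genes were the strongest and weakest open member of each cluster, every member not open, the 5 with the largest replicate difference, most distal peaks and widest hotspots, members sharing a peak, and a short list of known genes. Alternatives changed the TSS window, the TSSs used, the distance, the overlap, the peaks kept, the replicates, the cluster gap and the symbols taken.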

Additional observations from a re-analysis of the deposited data

How the results depend on the processing

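The count of open members ran from 83 to 88 over the alternatives, the highest with 92 members when symbols ending in a letter were taken. As shares, the members ran from 93.3% to 96.6% and all protein-coding genes from 65.3% to 73.3%. Zfp626 became open with a window of 2500 bp, Zfp111 and Zfp473 were lost with the 5′-most TSS only, and Zfp772 and Zfp296 with the stronger 50% of peaks. The median of distal peaks moved from 2 to 1 within 25 kb, to 7 within 100 kb and to 1 with the stronger 50% of peaks, while that of all genes moved from 5 to 2, 10 and 2. Leaving out a replicate gave 4 to 5 for the members, beside 7 to 8 for all genes. The Zfp genes of other chromosomes had 3 in the main count, 1 within 25 kb, 6 within 100 kb, 1 with the stronger 50% of peaks and 4 to 5 with a replicate left out. Of the 37 alternative values for the main counts, 32 stayed within the limits set and these 5 moved. Among the other values 73 stayed and 5 moved, all of them counts of motifs. Within 250 bp of the 5′-most TSS, a window longer than a peak, GGGCGG was in 43 members (50.6%, beside 69.7% of all open genes). CCAAT was in 39 (45.9%, beside 45.8%), CACGTG in 12 (14.1%, beside 12.7%) and GNGGNGGCA in 15 (17.6%, beside 20.3%). Without replicate 2, AAGATGGCG was in 1 member (1.18%, beside 1.36%). A largest gap of 500 kb gave 9 clusters and 1 of 2 Mb gave 7. The unknown depth limits every statement on a missing peak. No paired analysis was possible because there was 1 group only.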
